A study of Homo sapiens with 4 samples.

Results

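MALAT1, NEAT1, KCNQ1OT1, TUG1, NORAD, OIP5-AS1, GAS5, SNHG1, MIR22HG and FER1L4 are 10 long noncoding RNA genes among the 61541 gene rows of the deposited count files. They were taken by symbol from a named set of nuclear-retained RNAs, cytoplasmic RNAs and small RNA host genes. They were chosen by measured values of these same libraries: for their level, and with the nanoparticle to PBS fold changes known, among which MALAT1 and FER1L4 are larger increases. Their values in nanoparticle and PBS libraries are therefore given as a description, with no p-value. Whether a gene passed the threshold of the fit over all genes is stated on the same terms, and is no independent evidence of a difference.

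The libraries were made from polyadenylated RNA of H1299, an established human line from a lung carcinoma. In the nanoparticle group (2 libraries) the cells received ginseng nanoparticles, and in the PBS group (2 libraries) they received phosphate-buffered saline as the control. The series describes particles made from ginseng seeds, leaves, stems and roots and asks about proliferation and migration, but the labels give no plant part, dose or time for these libraries. Nanoparticle titles hold the word control as well, against their treatment label, which was followed. Both groups share the line, its serum-containing medium and its library kit. The labels do not say whether the libraries of a group came from separate cultures, so the spread between them may be technical. In such bulk RNA, fewer cells of a type and less RNA per cell cannot be told apart.

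Long noncoding RNAs are transcripts that code for no protein, and their location in the cell is closely tied to what they do. MALAT1 sits in nuclear speckles, which store splicing factors, and NEAT1 is the scaffold on which paraspeckles assemble. NORAD and OIP5-AS1 act mostly in the cytoplasm, where they bind proteins or microRNAs, while GAS5, SNHG1 and MIR22HG carry small RNAs within their primary transcripts.

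Depth was 24979081 and 24863313 counts on genes in nanoparticle replicates 1 and 2, against 22252686 and 22456882 in PBS replicates 1 and 2. Levels are CPM, counts scaled to a library size common to all libraries, with edgeR's trimmed mean of M-values, TMM. The H1299 marker VIM was at 2229 and 2186 CPM in nanoparticle libraries and 2317 and 2388 CPM in PBS libraries. EPCAM, CDH1 and NKX2-1 did not exceed 1.03 CPM in any library. The 10 markers of other cell types summed to 8.43 and 9.76 CPM in nanoparticle libraries and 8.58 and 7.91 CPM in PBS libraries, mostly from ACTA2, with PTPRC and HBB at 0 throughout.

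The 10 genes differed widely in level, and per kilobase the name abundant fits only some of them. Per kilobase of the principal transcript, the means over the 4 libraries were 175 CPM for GAS5, 72.5 CPM for NORAD and 63.9 CPM for SNHG1, above 97.5%, 91.8% and 90.6% of the 15496 tested genes with a known length. TUG1 followed at 17.2 CPM per kilobase and OIP5-AS1 at 10.997 CPM per kilobase. MALAT1, at 8.31 CPM per kilobase, was above 54.6% of tested genes, and NEAT1, at 4.46 CPM per kilobase, above 42.5%. MIR22HG was at 6.58, FER1L4 at 1.405 and KCNQ1OT1 at 0.00432 CPM per kilobase. Ranges over the 4 libraries overlapped between OIP5-AS1 and MALAT1 and between MALAT1 and MIR22HG, and for no other neighbours in this order. Dividing by all annotated exons in place of 1 transcript lowers GAS5 to 48.7 CPM per kilobase and puts NORAD first. How far selection for poly(A) RNA shapes these levels was not tested.

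**Figure D1:**
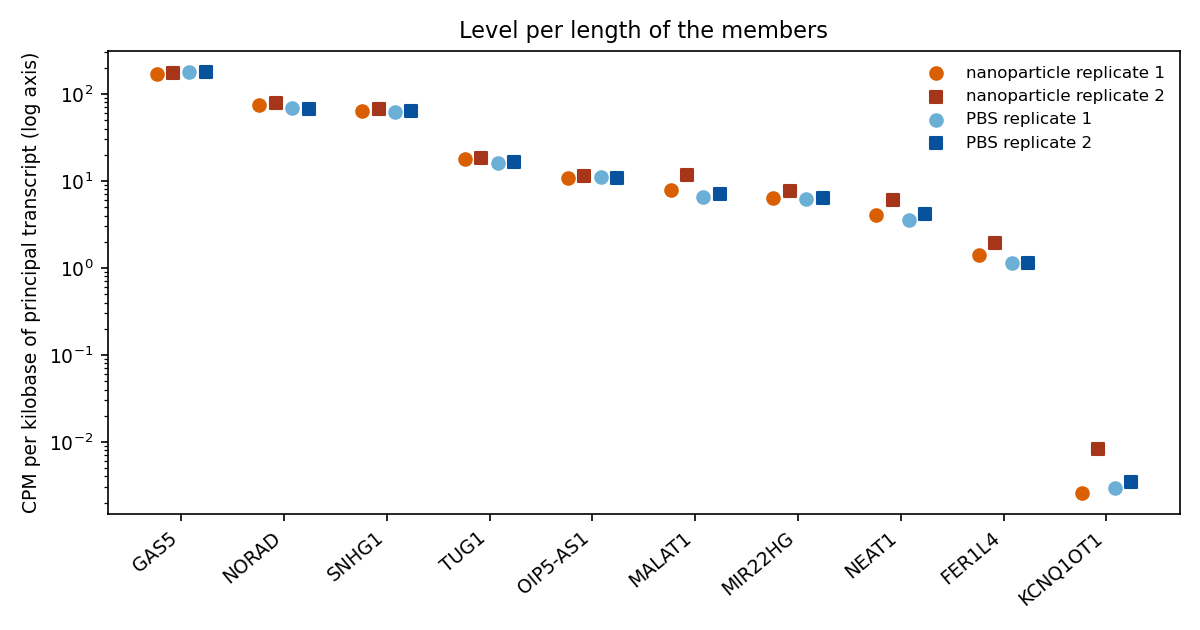
Level of each of the 10 genes in the 4 libraries, as CPM per kilobase of principal transcript on a log axis, with nanoparticle libraries to the left of PBS libraries. GAS5 lies highest with a mean of 175 and KCNQ1OT1 lowest with a mean of 0.00432. The MALAT1 point of nanoparticle replicate 2, at 11.8, lies above all points of OIP5-AS1, and the other MALAT1 points lie below them.

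Against PBS, 9 of the 10 genes had enough counts for the fit over all genes, and KCNQ1OT1 did not. Of the 9, 8 had a fold change above 0 and GAS5 was below 0. The median log2 fold change was 0.16, beside 0.00056 over all 15778 genes tested. MALAT1, FER1L4, NORAD and TUG1 passed the threshold, an adjusted p of 0.05 by edgeR's quasi-likelihood method, all 4 of them higher in nanoparticle libraries. Over all genes tested, 1.75% were called higher and 0.83% lower. Nothing is read from the count of 4, since this contrast took part in choosing the genes. In 6 genes both nanoparticle libraries lay above both PBS libraries, as in 23.7% of all tested genes. Only GAS5 had both nanoparticle libraries below both PBS libraries, as did 23.2% of tested genes. With PBS replicate 1 or PBS replicate 2 left out, no gene of any kind passed, although 1562 and 1672 had an unadjusted p under 0.05. Nanoparticle replicate 2 was the highest library for 8 of the 9 tested genes, against 28.3% of all tested genes. It was above nanoparticle replicate 1 in all 10, a count whose share over all genes was not computed. Some of these gaps were small. On the log2 scale TUG1 had 0.037 (95% counting interval -0.032 to 0.107) and OIP5-AS1 0.054 (-0.028 to 0.135).

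**Figure D2:**
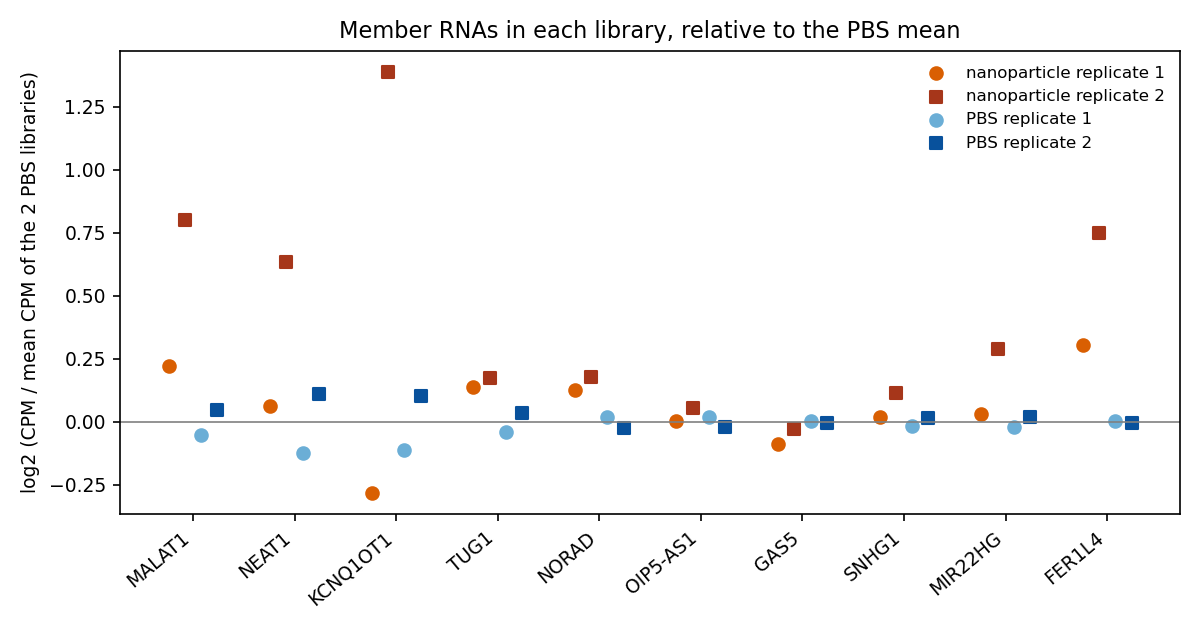
Level of each of the 10 genes in the 4 libraries, as log2 of CPM over the mean CPM of the PBS libraries, in the order of the text, with nanoparticle libraries left of PBS libraries. Nanoparticle replicate 2 (dark red squares) stands far above the other 3 libraries for MALAT1, at 103 CPM, and NEAT1, at 137 CPM, and for KCNQ1OT1, where it rests on 19 counts, while GAS5 and OIP5-AS1 lie close to 0 throughout.

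MALAT1 (ENSG00000251562; GRCh38 chromosome 11, 65497688 to 65506516, plus strand) is an RNA of nuclear speckles whose 3′ end has no added poly(A) tail. In its place the transcript ends in an A-rich stretch that folds back on U-rich stretches as a triple helix and shields the RNA from decay, and RNase P frees this end by cutting upstream of a tRNA-like small RNA. NEAT1, which lies upstream on the same strand, ends its long isoform in the same way. Both tracts are shown because they bear on how a library selected for poly(A) captures these genes. The capitals mark the U-rich stretches and the A-rich end, in DNA letters from the reference genome by GENCODE 29 gene models.
MALAT1, chr11:65506002-65506116, plus strand: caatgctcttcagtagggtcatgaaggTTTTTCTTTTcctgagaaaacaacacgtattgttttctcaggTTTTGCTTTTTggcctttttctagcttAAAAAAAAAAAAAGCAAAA
NEAT1, chr11:65445434-65445540, plus strand: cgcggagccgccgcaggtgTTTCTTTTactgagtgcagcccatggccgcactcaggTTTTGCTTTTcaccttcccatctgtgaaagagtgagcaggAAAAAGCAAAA
In each gene the annotated tRNA-like small RNA starts at the next base, at 65506117 after MALAT1 and at 65445541 after NEAT1. The longest run of A anywhere in the annotated transcript was 13 bases in MALAT1 and 22 bases in NEAT1. Such runs were not particular to these genes. The longest was 29 bases in OIP5-AS1 and in KCNQ1OT1, 18 in TUG1 and 10 in NORAD, and between 3 and 7 in the rest. A run of at least 10 A bases occurred in 19.1% of the 15496 principal transcripts of tested genes.

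MALAT1 was at 68.7 and 103 CPM in nanoparticle replicates 1 and 2, against 57.0 and 61.0 CPM in PBS replicates 1 and 2, from 1720, 2558, 1269 and 1365 counts. The groups did not overlap, but the nanoparticle libraries lay much farther from each other than the PBS libraries did. The means were 85.7 ± 24.02 CPM in nanoparticle libraries and 59.0 ± 2.85 CPM in PBS libraries (SD, n = 2 each). DESeq2, another method for counts, gave an SE of 0.29 against 0.11 in edgeR, where the log2 fold change was 0.54. Values were 0.49 without PBS replicate 1 and 0.59 without PBS replicate 2. Without nanoparticle replicate 2 it was 0.22 and did not pass the threshold, and without nanoparticle replicate 1 it was 0.80. Nanoparticle replicate 2 exceeded replicate 1 by 0.58 on the log2 scale, with a 95% counting interval of 0.49 to 0.67. That gap was larger than the gap of 99.9% of the 11104 genes above 5 CPM, whose median gap was 0.050 between nanoparticle libraries and 0.052 between PBS libraries.

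An annotated antisense gene, AP000769.2, covers 396 bases of MALAT1. The kit marks strand, but whether reads were counted by strand was not given in the sources used here. Reads on no annotated feature made up 2.44% and 2.78% of reads in nanoparticle libraries and 2.34% and 2.42% in PBS libraries, so the library with the most MALAT1 also had the largest such share. Its part in the MALAT1 value was not tested.

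NEAT1 (ENSG00000245532; chromosome 11, 65422774 to 65445540, plus strand) had 92.0 and 137 CPM in nanoparticle replicates 1 and 2, against 81.0 and 95.3 CPM in PBS replicates 1 and 2. Here the groups overlapped, with nanoparticle replicate 1 between the PBS libraries. The means were 115 ± 31.9 CPM in nanoparticle libraries and 88.2 ± 10.1 CPM in PBS libraries (SD, n = 2 each). The log2 fold change was 0.38 (SE 0.11, or 0.30 in DESeq2) and did not pass the threshold. Leaving out nanoparticle replicate 2 took the log2 fold change to 0.062, and leaving out nanoparticle replicate 1 took it to 0.64, past the threshold. The gap between nanoparticle libraries was 0.57 on the log2 scale, close to that of MALAT1. The counts do not separate the short, polyadenylated NEAT1 isoform from the long one. The ratio of NEAT1 to MALAT1 CPM was 1.34 and 1.33 in nanoparticle libraries and 1.42 and 1.56 in PBS libraries, so both genes stood in nearly the same ratio in the nanoparticle libraries despite their different levels.

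KCNQ1OT1 (ENSG00000269821; chromosome 11, 2608328 to 2699994, minus strand) is an antisense RNA that silences imprinted neighbours on the paternal chromosome. It was barely measured, with 6 and 19 counts in nanoparticle replicates 1 and 2 and 6 and 7 counts in PBS replicates 1 and 2. The summed counts were 25 in nanoparticle libraries and 13 in PBS libraries, a depth-adjusted ratio of 1.72 with an exact 95% interval of 0.847 to 3.66 that covers counting error only. No difference was detectable at this depth, and the groups overlapped. Together, the 3 nuclear-retained genes had 161 and 241 CPM in nanoparticle libraries, against 138 and 157 CPM in PBS libraries.

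TUG1 (ENSG00000253352; chromosome 22, 30969245 to 30979395, plus strand) is a spliced RNA found in both nucleus and cytoplasm. It had 134 and 137 CPM in nanoparticle libraries and 118 and 125 CPM in PBS libraries. The groups did not overlap, and the gap between them was larger than the gap within either. The log2 fold change was 0.16 with a standard error of 0.037, and it lost its pass of the threshold under 8 of 15 alternatives. Among these was each removal of 1 library, with values between 0.12 and 0.19.

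NORAD (ENSG00000260032; chromosome 20, 36045622 to 36050960, minus strand) is a cytoplasmic RNA that binds the repressor protein PUM2 through repeated short elements and protects chromosome number. A search of the sense strand for the element TGTANATA, where N is any base, found 15 in its 5339 bases, or 2.81 per kilobase. At least 1 such element occurred in 27.8% of 15496 principal transcripts and at least 15 in 0.0323%. Of the other 9 genes, 4 had any, led by KCNQ1OT1 with 9 and NEAT1 with 6. Elements 2, 6, 11 and 14, counted from the 5′ end, show the repeat, with the element in capitals.
NORAD element 2, chr20:36049803-36049832, minus strand: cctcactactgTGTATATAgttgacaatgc
NORAD element 6, chr20:36049118-36049147, minus strand: aaataccacttTGTAAATAtctttttgcta
NORAD element 11, chr20:36047971-36048000, minus strand: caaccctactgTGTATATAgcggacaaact
NORAD element 14, chr20:36047350-36047379, minus strand: caatgctactgTGTATATAatggaaaactt

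NORAD was the gene of the 10 with the most counts, 10021 and 10335 in nanoparticle libraries and 8284 and 8075 in PBS libraries. Its level was 401 and 415 CPM in nanoparticle libraries, against 372 and 361 CPM in PBS libraries. Both nanoparticle libraries were higher than both PBS libraries, by more than the spread within each group. The means were 408 ± 10.2 CPM in nanoparticle libraries and 366 ± 7.83 CPM in PBS libraries (SD, n = 2 each), a log2 fold change of 0.15 (SE 0.030). Values with 1 library left out lay between 0.13 and 0.18, and of these only the one without nanoparticle replicate 1 passed the threshold. PUM2, a protein that NORAD binds, had 149 and 148 CPM in nanoparticle libraries and 138 and 138 CPM in PBS libraries, with a log2 difference of 0.11 and an adjusted p of 0.106 in edgeR's test.

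OIP5-AS1 (ENSG00000247556; chromosome 15, 41283990 to 41309737, plus strand), also called Cyrano, is known for a site with unusually long pairing to miR-7, which triggers destruction of that microRNA. The site and the mature miR-7-5p (RefSeq, GRCh38.p14) are shown together, with the bases that pair with the seed and the seed itself, bases 2 to 8, in capitals.
OIP5-AS1 site, chr15:41300574-41300599, plus strand: aacaacaaaatcaccaatGTCTTCCa
hsa-miR-7-5p: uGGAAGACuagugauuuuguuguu
The first 14 bases of the site are complementary to the last 14 bases of the microRNA, and its last 8 bases to the first 8. Between these stretches 4 site bases and 2 microRNA bases stay unpaired. OIP5-AS1 had 96.3 and 99.9 CPM in nanoparticle libraries and 97.4 and 94.7 CPM in PBS libraries. The groups overlapped, and the log2 fold change was 0.031 (SE 0.039). It was 0.0039 without nanoparticle replicate 2, 0.0096 without PBS replicate 2, 0.057 without nanoparticle replicate 1 and 0.049 without PBS replicate 1. The direction turned when a trend with transcript length (-0.043) or with GC content (-0.019) was removed. NORAD and OIP5-AS1 together had 497 and 515 CPM in nanoparticle libraries and 469 and 456 CPM in PBS libraries.

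GAS5 (ENSG00000234741; chromosome 1, 173863900 to 173868882, minus strand) holds box C/D small nucleolar RNAs in its introns. Like other hosts of this kind, it can start with a run of pyrimidines, a feature that ties its translation and decay to growth signals. The first 30 bases of 1 annotated transcript are shown, with the opening run of 6 pyrimidines in capitals. It was picked for the longest such run among transcripts that start with CT, and is not the principal transcript. Only 6 of the 29 annotated GAS5 transcripts begin with this run.
GAS5 start, chr1:173867960-173867989, minus strand: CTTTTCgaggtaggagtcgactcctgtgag
GAS5 had 169 and 177 CPM in nanoparticle libraries, against 181 and 180 CPM in PBS libraries. It was the only gene of the 10 whose nanoparticle libraries were both lower than the PBS libraries. The log2 fold change was -0.058 (SE 0.034) and did not pass the threshold. It was -0.027 without nanoparticle replicate 1, -0.088 without nanoparticle replicate 2, and 0.0059 once the trend with transcript length was removed.

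SNHG1 (ENSG00000255717; chromosome 11, 62851988 to 62855914, minus strand), another host of box C/D small nucleolar RNAs, had 94.0 and 100.4 CPM in nanoparticle libraries and 91.7 and 93.8 CPM in PBS libraries. The groups did not overlap, although nanoparticle replicate 1 exceeded PBS replicate 2 only narrowly. The log2 fold change was 0.067 (SE 0.041) and did not pass the threshold. It was 0.019 without nanoparticle replicate 2 and 0.11 without nanoparticle replicate 1. The hosts GAS5 and SNHG1 summed to 263 and 277 CPM in nanoparticle libraries and 272 and 274 CPM in PBS libraries, with overlap.

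MIR22HG (ENSG00000186594; chromosome 17, 1711493 to 1717174, minus strand) is the host transcript of miR-22, and the microRNA lies within an annotated exon. Its mature arms are shown with seeds in capitals (RefSeq, GRCh38.p14), and the arms do not share a seed.
hsa-miR-22-3p: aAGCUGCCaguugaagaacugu
hsa-miR-22-5p: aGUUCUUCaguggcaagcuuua
The counts are of the host, and mature microRNAs were not measured. MIR22HG had 16.6 and 19.9 CPM in nanoparticle libraries and 16.1 and 16.5 CPM in PBS libraries. The groups did not overlap, but nanoparticle replicate 1 was barely above PBS replicate 2. The log2 fold change was 0.17 with a standard error of 0.087, did not pass the threshold, and was 0.030 without nanoparticle replicate 2 and 0.29 without nanoparticle replicate 1.

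FER1L4 (ENSG00000088340; chromosome 20, 35558737 to 35607562, minus strand) is a transcribed pseudogene of the ferlin family, whose coding members are membrane proteins of vesicle fusion and repair. It had 8.47 and 11.5 CPM in nanoparticle libraries, against 6.87 and 6.84 CPM in PBS libraries, from 212, 287, 153 and 153 counts. The PBS libraries were nearly equal, and both nanoparticle libraries lay above them. The means were 10.0 ± 2.16 CPM in nanoparticle libraries and 6.86 ± 0.0225 CPM in PBS libraries (SD, n = 2 each). DESeq2 gave a standard error of 0.19 against 0.13 in edgeR, where the log2 fold change was 0.54. Without nanoparticle replicate 2 it was 0.31 and did not pass the threshold, and without nanoparticle replicate 1 it was 0.75. Of the 5 coding ferlins, MYOF had 349 and 353 CPM in nanoparticle libraries and 332 and 350 CPM in PBS libraries, with an adjusted p of 0.545 in edgeR's test. DYSF was tested and did not pass either (log2 fold change 0.11, adjusted p 0.875), and OTOF, FER1L5 and FER1L6 were at or near 0.

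**Figure D3:**
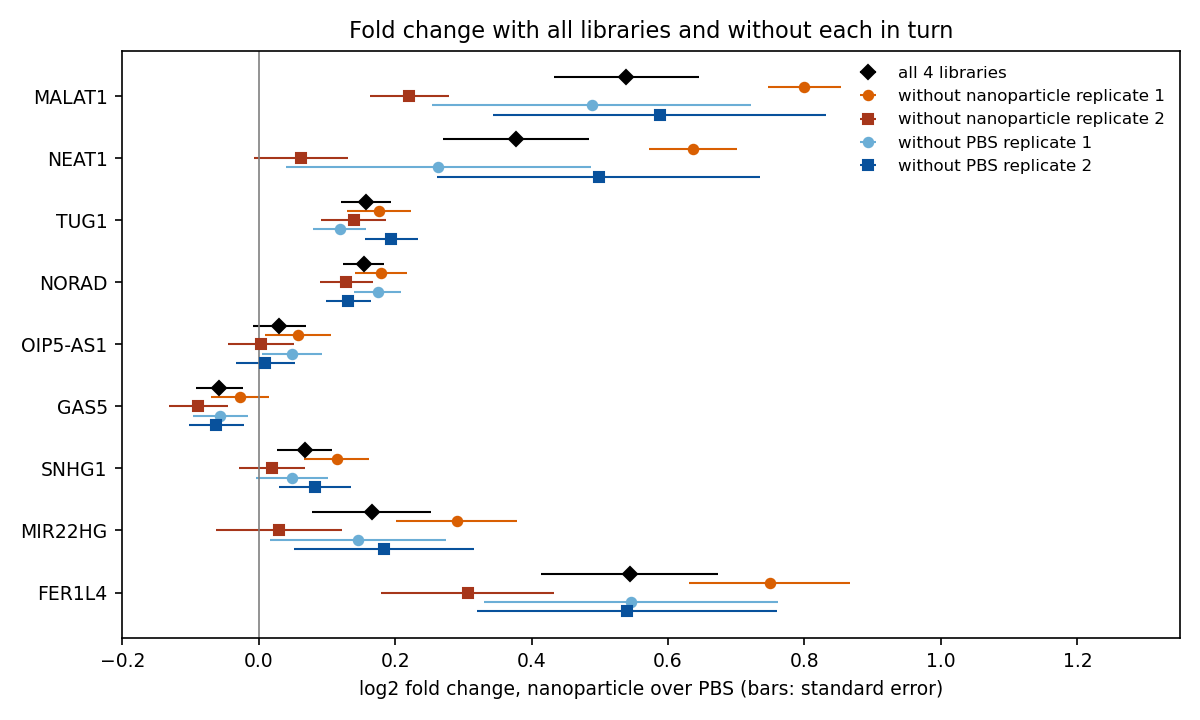
Log2 fold change of nanoparticle over PBS for the 9 tested genes, with all 4 libraries and without each library in turn, where bars are standard errors. Without nanoparticle replicate 2 the value of MALAT1 is 0.22 and that of NEAT1 0.062, and without nanoparticle replicate 1 they are 0.80 and 0.64, while the values of NORAD stay between 0.13 and 0.18.

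The fold change of genes at large varied with transcript length, and the 10 genes span a wide range of lengths. Among genes above 5 CPM with a known length, put in 10 bins, the median log2 fold change was -0.064 in the shortest bin (81 to 1352 bases) and 0.082 in the longest (7241 to 34526 bases). MALAT1, with an annotated transcript of 8708 bases, had a larger fold change than 99.8% of the longest bin, and NEAT1, with 22743 bases, than 98.6%. OIP5-AS1 and TUG1 are in the same bin, above 30.3% and 74.8% of its genes. FER1L4 was above 99.9% of its bin, MIR22HG above 97.3%, NORAD above 91.7%, SNHG1 above 90.5% and GAS5 above 54.0%. With the length trend removed in each library, the log2 fold change was 0.47 for MALAT1, 0.50 for FER1L4, 0.12 for NORAD and 0.20 for NEAT1. TUG1, at 0.099, no longer passed the threshold. The bin of NEAT1 and its value with the trend removed both rest on the length of its long isoform, and the counts do not separate its isoforms.

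**Figure D4:**
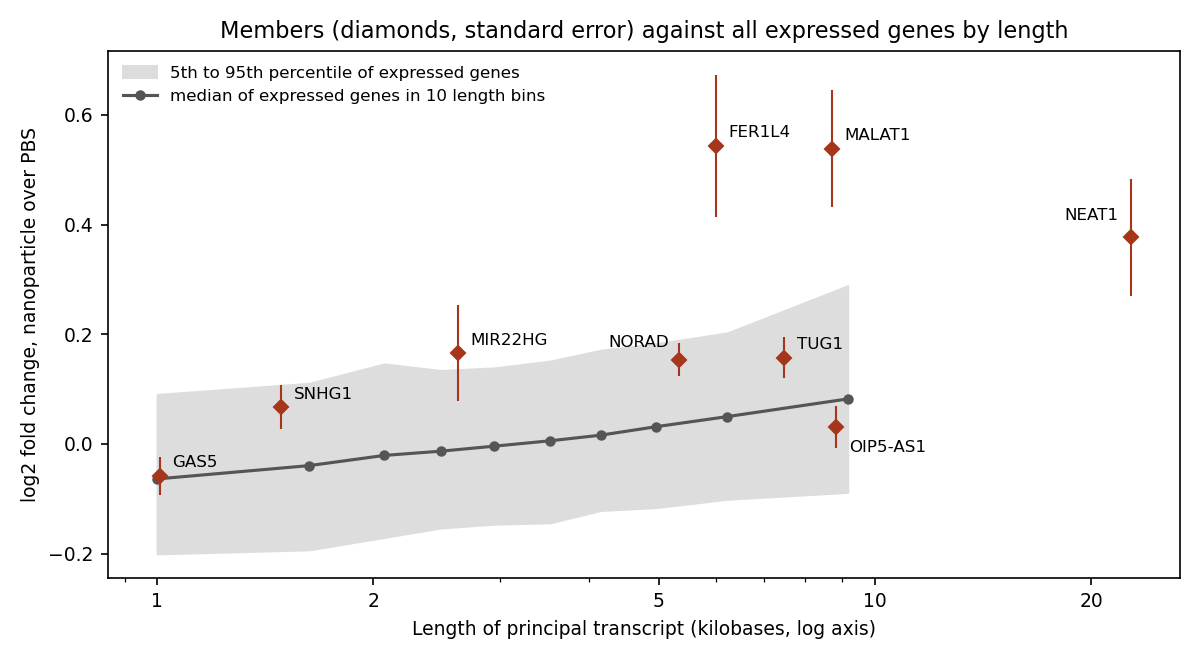
Log2 fold change of nanoparticle over PBS against length of the principal transcript in kilobases on a log axis, with diamonds and standard errors for the 9 tested genes, and the median (line) and 5th to 95th percentile (band) of genes above 5 CPM in 10 length bins, each drawn at its median length. The line climbs with length, with -0.064 in the shortest bin and 0.082 in the longest, and MALAT1 and FER1L4, both at 0.54, stand well above the band.

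The genes with the pattern most like MALAT1 over the 4 libraries were sought among 5070 other genes of at least 50 CPM, by the Euclidean distance between centred log2 CPM values. The 5 nearest were MT-ND5 (distance 0.28), MT-CO1 (0.30), LPP (0.32), MT-RNR1 (0.33) and KMT2D (0.33). By the same measure FER1L4 (0.13) and NEAT1 (0.18) were nearer to MALAT1 than all of these. MIR22HG (0.42) had 26 of the 5070 nearer than itself. FER1L4 and MIR22HG, with means of 8.43 and 17.3 CPM, lie below the 50 CPM asked of the other genes. Other genes at their level were not compared. MALAT1 and FER1L4 were also picked with their increases known, so their nearness is no independent evidence. GAS5 was farthest of the 9 tested genes, at 0.68, with 3034 genes nearer. All these distances rest on 4 libraries.

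MT-ND5, a complex I subunit encoded by mitochondrial DNA, had 179 and 255 CPM in nanoparticle libraries and 131 and 182 CPM in PBS libraries. KMT2D, a histone methyltransferase, had 98.8 and 107 CPM in nanoparticle libraries and 72.3 and 75.7 CPM in PBS libraries, so it shares the contrast of groups more than the gap between nanoparticle libraries. All 37 mitochondrially encoded genes together took 0.371% and 0.512% of gene counts in nanoparticle libraries and 0.310% and 0.428% in PBS libraries. In both groups replicate 2 had the larger share, and the groups overlapped. The part of this share in the values of MALAT1, NEAT1 and FER1L4 was not tested.

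**Figure D5:**
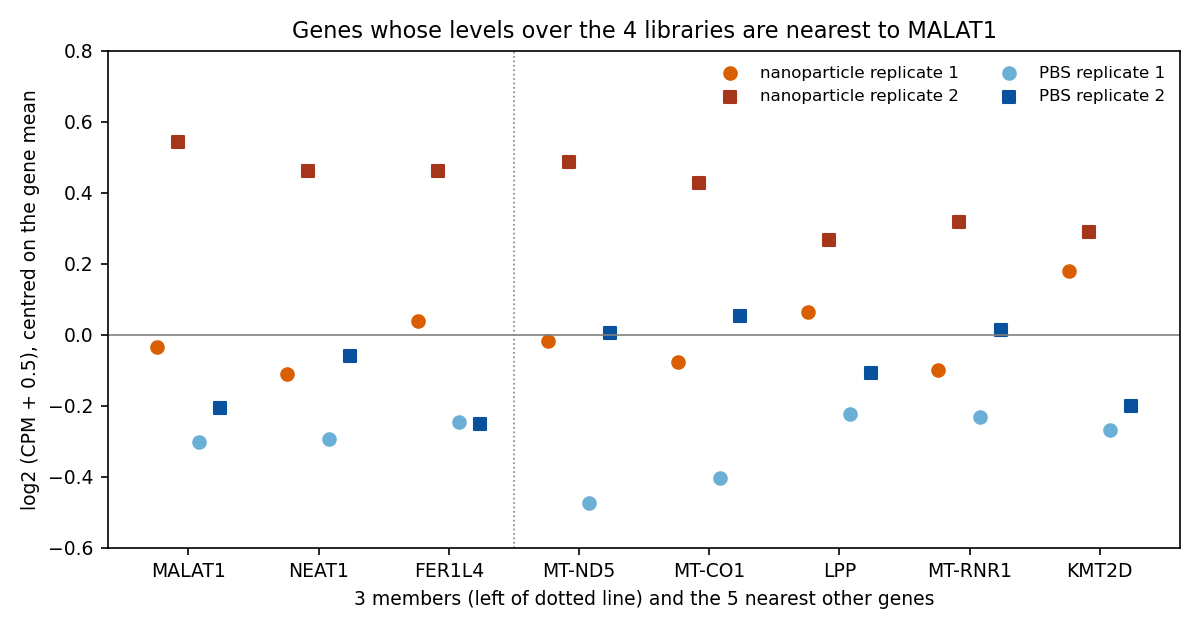
Log2 (CPM + 0.5), centred on each gene's mean over the 4 libraries, with nanoparticle libraries left of PBS libraries. Shown are MALAT1, NEAT1, FER1L4 and the 5 genes nearest to MALAT1 among other genes of at least 50 CPM. Nanoparticle replicate 2 is the highest library for each of the 8 genes, and for MT-ND5 PBS replicate 2 (182 CPM) is above nanoparticle replicate 1 (179 CPM).

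Other genes of the same kinds and the proteins that work with these RNAs were read from lists by role, and tested with edgeR over all genes. Over all 15778 genes tested, 2648 had an unadjusted p under 0.05 in edgeR's test. Of 28 other small nucleolar RNA hosts, 24 were tested and none passed the threshold. Of these, 4 had an unadjusted p under 0.05, and the median log2 fold change was -0.041. ZFAS1 was lowest in p, with 20.2 and 20.5 CPM in nanoparticle libraries and 23.6 and 23.8 CPM in PBS libraries (adjusted p 0.0919 in edgeR's test), and SNHG29 had 357 and 360 CPM in nanoparticle libraries and 385 and 375 CPM in PBS libraries (adjusted p 0.121). Of 18 other microRNA hosts 10 were tested, and none passed or had an unadjusted p under 0.05. Their median log2 fold change was 0.14, with 8 above 0. MIR23AHG, host of the miR-23a cluster, had 8.03 and 12.6 CPM in nanoparticle libraries and 8.22 and 9.79 CPM in PBS libraries, so nanoparticle replicate 2 was again highest and the groups overlapped.

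Among 52 other well-known long noncoding RNAs, 36 were tested and only TMPO-AS1, antisense to the lamina gene TMPO, passed, and it fell. It had 20.3 and 17.5 CPM in nanoparticle libraries, against 23.0 and 24.5 CPM in PBS libraries (log2 fold change -0.33, SE 0.078, adjusted p 0.0271 in edgeR's test). Without nanoparticle replicate 2 its value was -0.22 and the adjusted p 0.356. In all 1851 other tested genes that GENCODE 29 calls long noncoding, 5 rose and 4 fell, or 0.486%, against 3.05% of 12838 protein-coding genes. The median standard error was 0.25 for the noncoding and 0.059 for the coding genes, so smaller changes could pass in the coding ones.

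Nuclear speckle and splicing factors, the proteins around MALAT1, had 29 of 30 members tested, of which SRRM2 and PRPF8 rose, none fell and the median log2 fold change was 0.024. SRRM2, a core scaffold of speckles, had 468 and 505 CPM in nanoparticle libraries and 379 and 441 CPM in PBS libraries (log2 fold change 0.25, SE 0.047, adjusted p 0.00624 in edgeR's test). The SRRM2 value depended on the PBS library kept, at 0.14 without PBS replicate 1 and 0.36 without PBS replicate 2. PRPF8, the central spliceosome protein, had 633 and 631 CPM in nanoparticle libraries and 559 and 585 CPM in PBS libraries (log2 fold change 0.14, SE 0.027, adjusted p 0.00584). Neither passed after removal of the length trend, where edgeR's adjusted p was 0.0568 for SRRM2 and 0.134 for PRPF8, or without nanoparticle replicate 2, where it was 0.234 and 0.119. PRPF8 also did not pass without nanoparticle replicate 1 (edgeR adjusted p 0.0749). None of 30 paraspeckle proteins passed, and their median log2 fold change was 0.012. Of the 30, 3 had an unadjusted p under 0.05 in edgeR's test, beside 2648 of all 15778 genes tested. SFPQ, an essential paraspeckle protein, had 524 and 535 CPM in nanoparticle libraries and 507 and 508 CPM in PBS libraries (adjusted p 0.223 in edgeR's test).

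Nonsense-mediated decay destroys the spliced RNAs of several small nucleolar RNA hosts, GAS5 among them. Of its 19 listed factors, SMG1, the kinase that starts the pathway, rose and none fell, with a median log2 fold change of 0.0090. SMG1 had 83.8 and 90.0 CPM in nanoparticle libraries and 67.4 and 67.6 CPM in PBS libraries (log2 fold change 0.36, SE 0.044, adjusted p 6.0e-05 in edgeR's test). Of the 7 list members past the threshold, SMG1 alone also passed without nanoparticle replicate 2 (adjusted p 0.00867 in edgeR's test), and it passed after removal of the length trend (0.00515). The genome holds partial copies of SMG1, and how shared reads were counted was not given in the sources used here.

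Of 30 known RNA or protein partners of the 10 genes, AGO2, which carries microRNAs, rose, none fell and the median log2 fold change was 0.032. AGO2 had 170 and 171 CPM in nanoparticle libraries and 146 and 153 CPM in PBS libraries (log2 fold change 0.19, SE 0.035, adjusted p 0.00496 in edgeR's test), but did not pass once the length trend was removed (0.425) or without nanoparticle replicate 2 (0.118). DICER1, the enzyme that cuts microRNA precursors, had 109 and 115 CPM in nanoparticle libraries and 104 and 99.5 CPM in PBS libraries and did not pass (adjusted p 0.0713 in edgeR's test).

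Of 46 listed genes near the 10 on the genome, 44 had a row, all of these on the same chromosome and within 244 kilobases. Of them 41 were tested, 1 rose and 1 fell, and the median log2 fold change was -0.033. ZBTB37, a zinc finger gene whose annotated span meets that of GAS5, rose, with 10.2 and 10.5 CPM in nanoparticle libraries and 7.63 and 7.73 CPM in PBS libraries (log2 fold change 0.43, SE 0.10, adjusted p 0.0247 in edgeR's test). PHLDA2, an imprinted growth gene 228 kilobases from KCNQ1OT1, fell, with 40.6 and 37.1 CPM in nanoparticle libraries and 46.9 and 45.6 CPM in PBS libraries (log2 fold change -0.25, SE 0.055, adjusted p 0.0157). Neither passed after removal of the length trend, where edgeR's adjusted p was 0.208 for ZBTB37 and 0.0908 for PHLDA2, or without nanoparticle replicate 2, where it was 0.200 and 0.287. ZBTB37 also did not pass without nanoparticle replicate 1 (edgeR adjusted p 0.0768). No tested gene of the list near MALAT1 or FER1L4 passed, and the closest to FER1L4 was ERGIC3 (log2 fold change -0.023, adjusted p 0.766 in edgeR's test).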

How the data were processed

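Polyadenylated RNA of H1299 cells was sequenced in 4 libraries, made with a TruSeq stranded mRNA kit per the labels' protocols. The deposited files hold whole-number counts of reads per Ensembl gene, not normalized. The submitters' processing notes name bcl2fastq 2.20, cutadapt 3.5, STAR 2.7.6a, Picard, HTSeq 2.0.2 and the build GRCh38. Annotation release and strandedness of counting were not given in the sources used here. Rows for reads on no gene, 14.3% and 13.7% of reads in nanoparticle libraries and 14.8% and 14.5% in PBS libraries, were left out.

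The genes and lists were chosen with earlier results of these data known. Named genes were the 10 members, up to 4 of smallest p per list, and the 5 nearest to MALAT1 with at least 50 CPM. The neighbour ERGIC3 and the RNAs LINC00472, LINC01963, EMSLR and FCHO2-DT were named after their values were seen. A few listed genes are not reported here.

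Genes were filtered with filterByExpr and tested with edgeR 4.0.16 (R 4.3.3): TMM scaling, glmQLFit and glmQLFTest, two-sided, Benjamini-Hochberg adjustment over 15778 genes, threshold 0.05, 2 residual degrees of freedom. Standard errors came from the coefficient and its F statistic. The procedure was tested on simulated counts. Replicates differed by more than counting error (chi-square per degree of freedom 2.05 between nanoparticle and 1.86 between PBS libraries). Intervals are at the 95% level and cover counting error only. Coordinates, lengths and gene types came from GENCODE 29, whose release may differ from that used for counting. Length is that of the principal transcript. Length and GC trends were removed as robust splines of log2 CPM (MASS 7.3.60.0.1, 4 degrees of freedom) over genes above 5 CPM. Other alternatives were DESeq2 1.42.0, limma-voom (limma 3.58.1), RLE, upper-quartile and total-count scaling, no filter, at least 50 counts on average, the replicate number as a block and leaving out each library. A trend with exon-union length was added after the data were seen.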

Additional observations from a re-analysis of the deposited data

How the results depend on the processing

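The edgeR fit called 407 genes past the threshold, 4 of them among the 10 long noncoding RNAs and 7 in the related lists. Without a filter on low counts it called 0, 0 and 0, with 2297 genes at an unadjusted p under 0.05 and a lowest adjusted p of 0.544. DESeq2 called 124, 1 (NORAD) and 3, with no adjusted p for FER1L4 and MIR22HG. With the length trend removed the counts were 226, 3 and 3, and with exon-union length 275, 3 and 4. Upper-quartile scaling called 413 genes, 223 of them higher, against 276 of 407, and a mean of at least 50 counts called 602. With 1 library left out the counts ran over 0 to 200 genes, 0 to 4 of the 10 and 0 to 5 list members. Without PBS replicate 1 or 2 they were 0, with 1562 and 1672 genes at an unadjusted p under 0.05, without nanoparticle replicate 1 they were 200, 4 and 5, and without nanoparticle replicate 2 they were 76, 0 and 1. The lone library left in a group was assumed to vary like the other group.

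Replicate numbers do not pair the libraries by the labels, and same-numbered deviations correlated at 0.033. With the replicate block 759 genes and 13 list members passed, and 5 of the 10, with NEAT1 added. NEAT1 passed in 4 of 15 alternatives. Values that turned direction were GAS5 with the length trend removed (0.0059) and OIP5-AS1 with the length (-0.043), exon-union length (-0.029) or GC trend (-0.019) removed. Under all 15 alternatives MALAT1 stayed between 0.22 and 0.80, FER1L4 between 0.31 and 0.75, NORAD between 0.12 and 0.18 and TUG1 between 0.099 and 0.19. Why these values moved was not tested. Depth limits KCNQ1OT1, and 2 libraries a group limit all standard errors.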

Other observations

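Outside the lists, 4 named long noncoding RNAs past the threshold can be placed beside the 10. LINC00472 rose, with 14.3 and 17.1 CPM in nanoparticle libraries and 11.3 and 12.2 CPM in PBS libraries (log2 fold change 0.42, edgeR adjusted p 0.0235). LINC01963 rose as well, with 17.99 and 18.8 CPM in nanoparticle libraries and 14.7 and 14.97 CPM in PBS libraries (0.31, edgeR adjusted p 0.0371). EMSLR fell, with 25.4 and 26.2 CPM in nanoparticle libraries and 31.0 and 29.9 CPM in PBS libraries (-0.24, edgeR adjusted p 0.0421). FCHO2-DT fell at a low level, with 0.200 and 0.281 CPM in nanoparticle libraries and 0.808 and 0.671 CPM in PBS libraries (edgeR adjusted p 0.0483).

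RNAs that lack a poly(A) tail, histone and small nuclear or nucleolar RNAs, summed to 227 and 224 CPM in nanoparticle libraries and 225 and 239 CPM in PBS libraries over 30 listed genes. Of these 17 were tested, and none passed in edgeR's test or had an unadjusted p under 0.05.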
